A study of Homo sapiens with 24 samples.

Results

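The 34 genes described here encode the enzymes of cholesterol synthesis, the proteins that sense sterols and control those enzymes, and the enzymes that make and modify fatty acids. They were chosen by symbol from general knowledge of the pathways, but with earlier results of these data known. All 34 were found among the 19702 genes of the count table. The sterol branch has 19 members, the regulators 7 and the fatty acid branch 8. The sterol branch was read in 3 stretches, from acetyl units to farnesyl diphosphate (7 genes), from there to lanosterol (3 genes) and from lanosterol to cholesterol (9 genes).

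Cholesterol is built from acetyl-CoA through mevalonate, farnesyl diphosphate, squalene and lanosterol, and fatty acids are built from the same acetyl-CoA by carboxylation, chain extension and desaturation. Both sets of genes are known targets of the sterol regulatory element-binding proteins (SREBPs), transcription factors made as membrane proteins that the escort SCAP carries to the Golgi for cleavage when sterols in the endoplasmic reticulum are low. INSIG proteins hold SCAP and its cargo back when sterols are high. SREBF2 is known mainly for the sterol branch and SREBF1 mainly for the fatty acid branch.

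The counts are of messenger RNA from PC9 and H1975, both established lines from human lung adenocarcinomas with mutant EGFR. In PC9 the groups were the combination of both drugs, 0.3 nM paclitaxel, 2 nM almonertinib and control. In H1975 they were the combination, 1 nM paclitaxel, 1 nM almonertinib and control, and each of the 8 groups had 3 libraries of cells kept for 24 h. Almonertinib is a covalent inhibitor of mutant EGFR, and paclitaxel is a taxane that stabilises microtubules. The labels give no doses within the combination and no vehicle for the control, and the single-drug doses differed between the lines, so line and dose cannot be told apart. Whether the 3 libraries of a group were separate cultures is not stated either, so every p-value reflects a library-to-library spread that may be technical.

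Library totals ran from 14232299 to 24245314 counts. All levels are CPM, read counts relative to the library total after scaling by TMM (trimmed mean of M-values). A gene is called when its edgeR quasi-likelihood p, adjusted over all genes tested by the Benjamini-Hochberg method, is under 0.05. The epithelial markers EPCAM, CDH1, KRT8, KRT18 and KRT19 were at 87.1 CPM or more in every library, while the leukocyte gene PTPRC and the fibroblast genes COL1A2 and DCN stayed at 0.0486 CPM or less. COL1A1, another fibroblast gene, was at 5.57 to 22.7 CPM, and the endothelial gene PECAM1 at no more than 0.563 CPM. By the correlation of libraries within a group, 1 PC9 library (almonertinib 3) and 3 H1975 libraries (almonertinib 1, control 3 and paclitaxel 1) stood apart from the other libraries of their group. PC9 control 1 did not stand apart over all genes, with correlations of 0.988 and 0.986 to the other controls, but it did so in the genes described here.

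In that library 29 of the 33 measured members were below both other PC9 controls, and 17 of the 33 (51.5%) were at least 2-fold below their mean. Over all 12796 genes tested in PC9, 85 (0.664%) were that far below. The sterol branch of control 1 had a median log2 difference of -1.42 from controls 2 and 3, with 13 of 19 genes at least 2-fold lower, and the fatty acid branch a median of -0.69, with 3 of 8. Between controls 2 and 3 none of the members differed by that much. Control 1 lay nearer to the mean of the paclitaxel libraries than to the mean of the other controls in 26 of the 33 members. No share over all genes was computed for that count or for the 29 below both other controls. Why control 1 stood apart in these genes was not tested. The counts of members in each PC9 comparison that uses the controls are therefore given with all 3 controls and without control 1. Values of single genes are over all 3 controls unless stated otherwise.

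**Figure D1:**
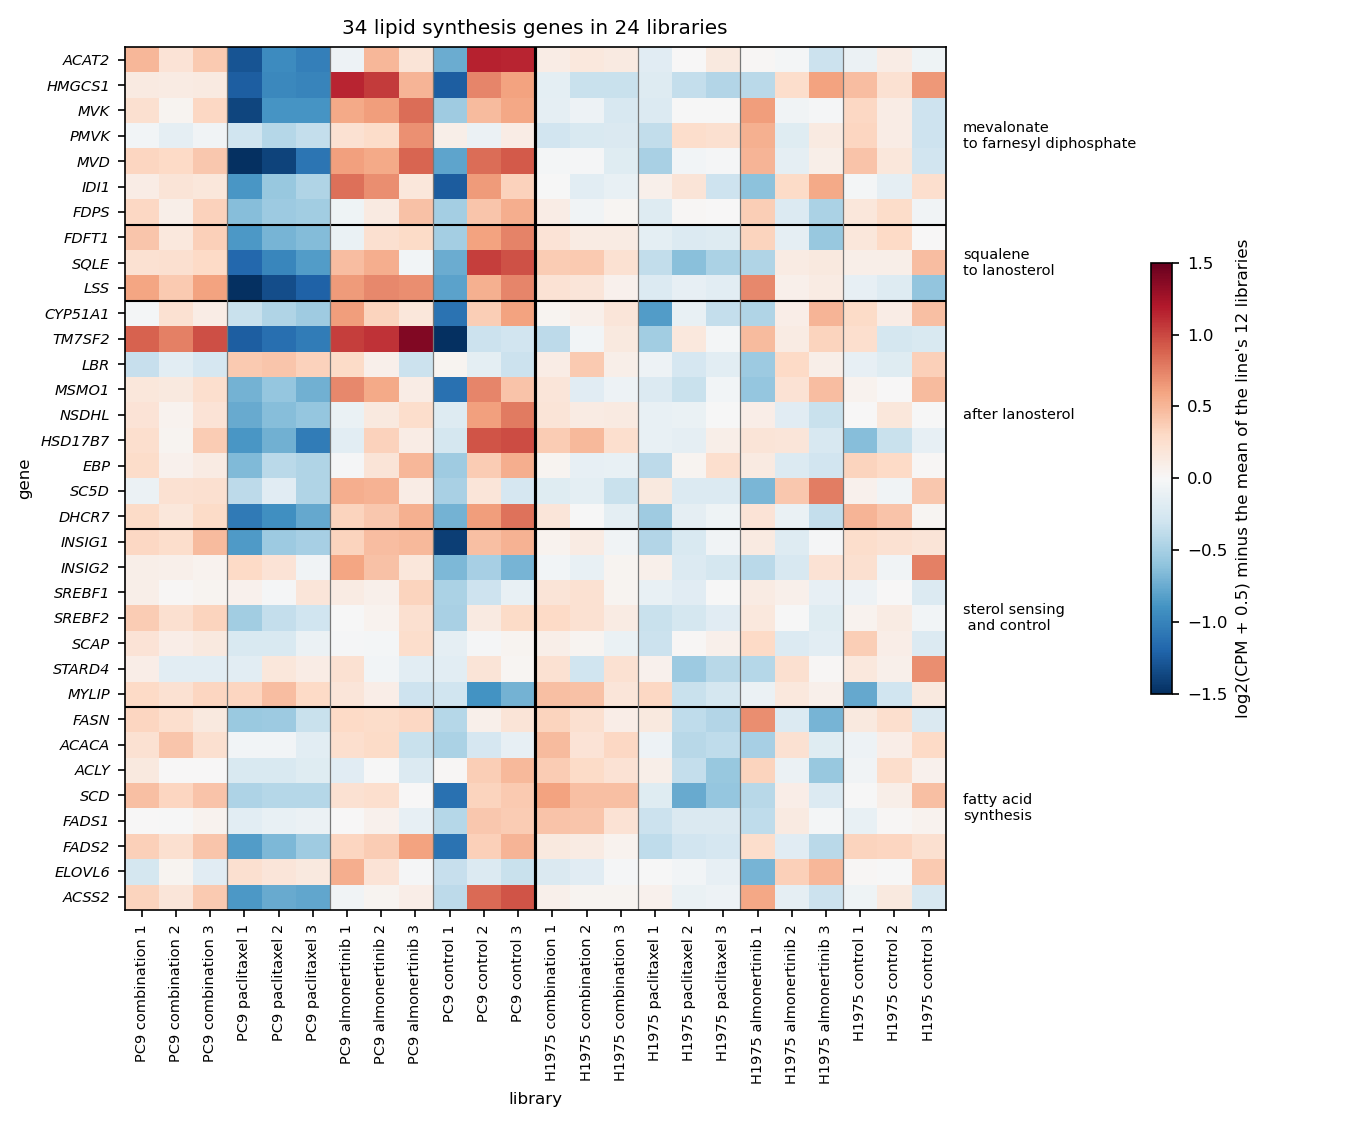
Heat map of the 34 genes (rows, grouped by step) in the 24 libraries (columns, PC9 to the left), as log2(CPM + 0.5) minus the gene's mean over the 12 libraries of its line, with red above and blue below that mean. The 3 PC9 paclitaxel libraries and PC9 control 1 are blue across most of the sterol branch, while the other PC9 libraries are mostly red; H1975 shows no such block.

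Promoters are shown for 6 members on which the PC9 results turn. LSS and MVD differed by more than 3-fold between the combination and paclitaxel. TM7SF2 and LBR, which encode reductases of the same step after lanosterol, moved in opposite directions in the combination against paclitaxel, SREBF2 encodes the SREBP of the sterol branch, and SCD stands for the fatty acid branch. Each sequence is the 250 bases before the annotated start, 5′ to 3′ on the strand of the gene, from RefSeq on GRCh38.p14, and capitals mark the 2 motifs searched, CCAAT (the box bound by NF-Y, a common partner of SREBPs) and TCACNCCAC (a sterol regulatory element), each on both strands.
LSS (chr21:46228775-46229024, minus strand): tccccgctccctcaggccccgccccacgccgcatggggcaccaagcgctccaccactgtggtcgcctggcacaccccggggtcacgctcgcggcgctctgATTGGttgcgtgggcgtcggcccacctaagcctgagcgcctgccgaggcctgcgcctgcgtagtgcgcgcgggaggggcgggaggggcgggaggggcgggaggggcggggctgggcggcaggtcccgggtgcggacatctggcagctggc
MVD (chr16:88663092-88663341, minus strand): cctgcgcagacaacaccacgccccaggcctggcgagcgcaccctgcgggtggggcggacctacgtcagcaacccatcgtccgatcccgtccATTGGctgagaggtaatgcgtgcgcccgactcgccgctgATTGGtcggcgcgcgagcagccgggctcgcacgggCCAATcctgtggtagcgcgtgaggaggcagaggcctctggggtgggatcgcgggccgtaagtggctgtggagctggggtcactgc
TM7SF2 (chr11:65111622-65111871, plus strand): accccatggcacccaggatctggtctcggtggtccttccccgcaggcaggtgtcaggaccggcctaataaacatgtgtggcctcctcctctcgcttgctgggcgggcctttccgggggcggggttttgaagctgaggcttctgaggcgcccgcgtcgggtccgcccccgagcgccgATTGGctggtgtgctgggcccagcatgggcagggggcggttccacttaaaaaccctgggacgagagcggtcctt
LBR (chr1:225428822-225429071, minus strand): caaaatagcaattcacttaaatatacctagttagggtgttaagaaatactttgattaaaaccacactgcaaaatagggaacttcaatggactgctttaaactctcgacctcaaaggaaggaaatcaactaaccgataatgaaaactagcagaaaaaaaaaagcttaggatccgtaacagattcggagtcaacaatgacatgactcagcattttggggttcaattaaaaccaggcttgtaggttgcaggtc
SREBF2 (chr22:41832855-41833104, plus strand): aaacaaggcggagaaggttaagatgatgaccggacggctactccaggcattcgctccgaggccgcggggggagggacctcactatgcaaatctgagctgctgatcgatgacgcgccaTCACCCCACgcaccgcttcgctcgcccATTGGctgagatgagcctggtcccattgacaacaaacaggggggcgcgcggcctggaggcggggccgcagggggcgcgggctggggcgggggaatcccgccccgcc
SCD (chr10:100346983-100347232, plus strand): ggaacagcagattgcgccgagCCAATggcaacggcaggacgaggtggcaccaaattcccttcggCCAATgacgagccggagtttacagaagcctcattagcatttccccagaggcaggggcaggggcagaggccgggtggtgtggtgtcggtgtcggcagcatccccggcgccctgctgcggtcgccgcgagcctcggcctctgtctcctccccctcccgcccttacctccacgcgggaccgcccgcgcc

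Of the 34 members, 30 (all but ACAT2, FDFT1, SQLE and FASN) had a promoter entry of 300 bases (250 before and 50 after the start). CCAAT was present in 19 of the 30 (63.33%), against 9747 of all 27305 promoters of that length (35.7%). By branch it was in 12 of 16 promoters of the sterol branch (75.0%), 4 of 7 of the regulators (57.14%) and 3 of 7 of the fatty acid branch (42.86%). MVD holds 3 copies, MVK and NSDHL 5 each, and LSS, TM7SF2 and SREBF2 a single copy. In the sterol branch PMVK, IDI1, CYP51A1 and LBR hold none. The IDI1 window (chr10:1056655-1056954) lies upstream of the whole gene as annotated in GENCODE v29 (chr10:1039152-1049170, minus strand). The start in that annotation was not searched for IDI1. TCACNCCAC was present in SREBF2 alone among the 30, 133 bases before the start, and in 313 of all promoters (1.15%). The 2 motifs share no run of letters long enough for one hit to be counted as the other. A match describes the sequence only, and the absence of these letters from this window says nothing about binding of the factor.

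Per length of the principal transcript, the highest mean levels in the controls of both lines were those of FDPS, farnesyl diphosphate synthase, with 266.0 CPM per kb in PC9 and 205.1 CPM per kb in H1975. FDFT1 (248.6), SCD (164.3) and DHCR7 (161.5 CPM per kb) came next in the PC9 controls, and PMVK (114.4), FASN (98.33) and FDFT1 (78.79 CPM per kb) in the H1975 controls. On the same per-length scale the lowest in both lines were STARD4, CYP51A1 and, in PC9, ELOVL6. Mean control levels of TM7SF2 were 74.8 CPM in PC9 and 3.72 CPM in H1975, a ratio of 20.1, and those of FADS2 were 230 and 35.8 CPM (6.42). PMVK went the other way, with 41.0 CPM in the PC9 controls and 146 CPM in the H1975 controls (0.280). STARD4, a sterol carrier, was at no more than 0.154 CPM in any PC9 library and was not tested there, which leaves 33 members in PC9 and 34 in H1975.

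In PC9, cells given both drugs held more messenger RNA of cholesterol synthesis genes than cells given paclitaxel alone. Of the 33 members 26 rose and 1 fell in the combination against paclitaxel, a comparison that involves no control library, against a background of 21.7% of all 12796 genes tested called higher and 22.4% called lower. Without control 1, which changes the genes tested and the estimate of the spread, 27 rose and 1 fell (21.7% and 22.3%). The sterol branch had 17 of 19 genes higher and 1 lower, with a median log2 fold change of 1.06, and the fatty acid branch 6 of 8 higher, with a median of 0.57; over all genes tested the median was -0.05. Among the regulators 3 of 6 rose. The libraries did not overlap between the groups in 28 members higher and 2 lower in the combination, 30 of 33 members, where 63.1% of all genes did not overlap. In bulk RNA, fewer cells that hold a transcript and less of it per cell cannot be told apart.

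Paclitaxel alone went with lower levels of most members; this comparison shares its paclitaxel libraries with the one before. Against the 3 controls 20 members fell and 5 rose, where 28.0% of all genes fell and 27.0% rose. The sterol branch had 15 lower and 1 higher of 19 (median -1.13), the regulators 1 lower and 3 higher of 6, and the fatty acid branch 4 lower and 1 higher of 8 (median -0.47), beside a median of -0.01 over all genes. Without control 1, 25 fell and 5 rose, where 25.2% of all genes fell and 24.4% rose, and the medians were -1.38 for the sterol branch and -0.65 for the fatty acid branch. All 25 calls made with 3 controls were also made without control 1, in the same direction. The libraries of the paclitaxel and control groups did not overlap in 5 members higher and 13 lower (66.2% of all genes in either direction). With a trend over transcript length and base composition removed from every library, 2 members rose and 23 fell under paclitaxel (22.5% and 29.9% of all genes), and 26 rose and 2 fell in the combination against paclitaxel (24.3% and 21.7%).

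**Figure D2:**
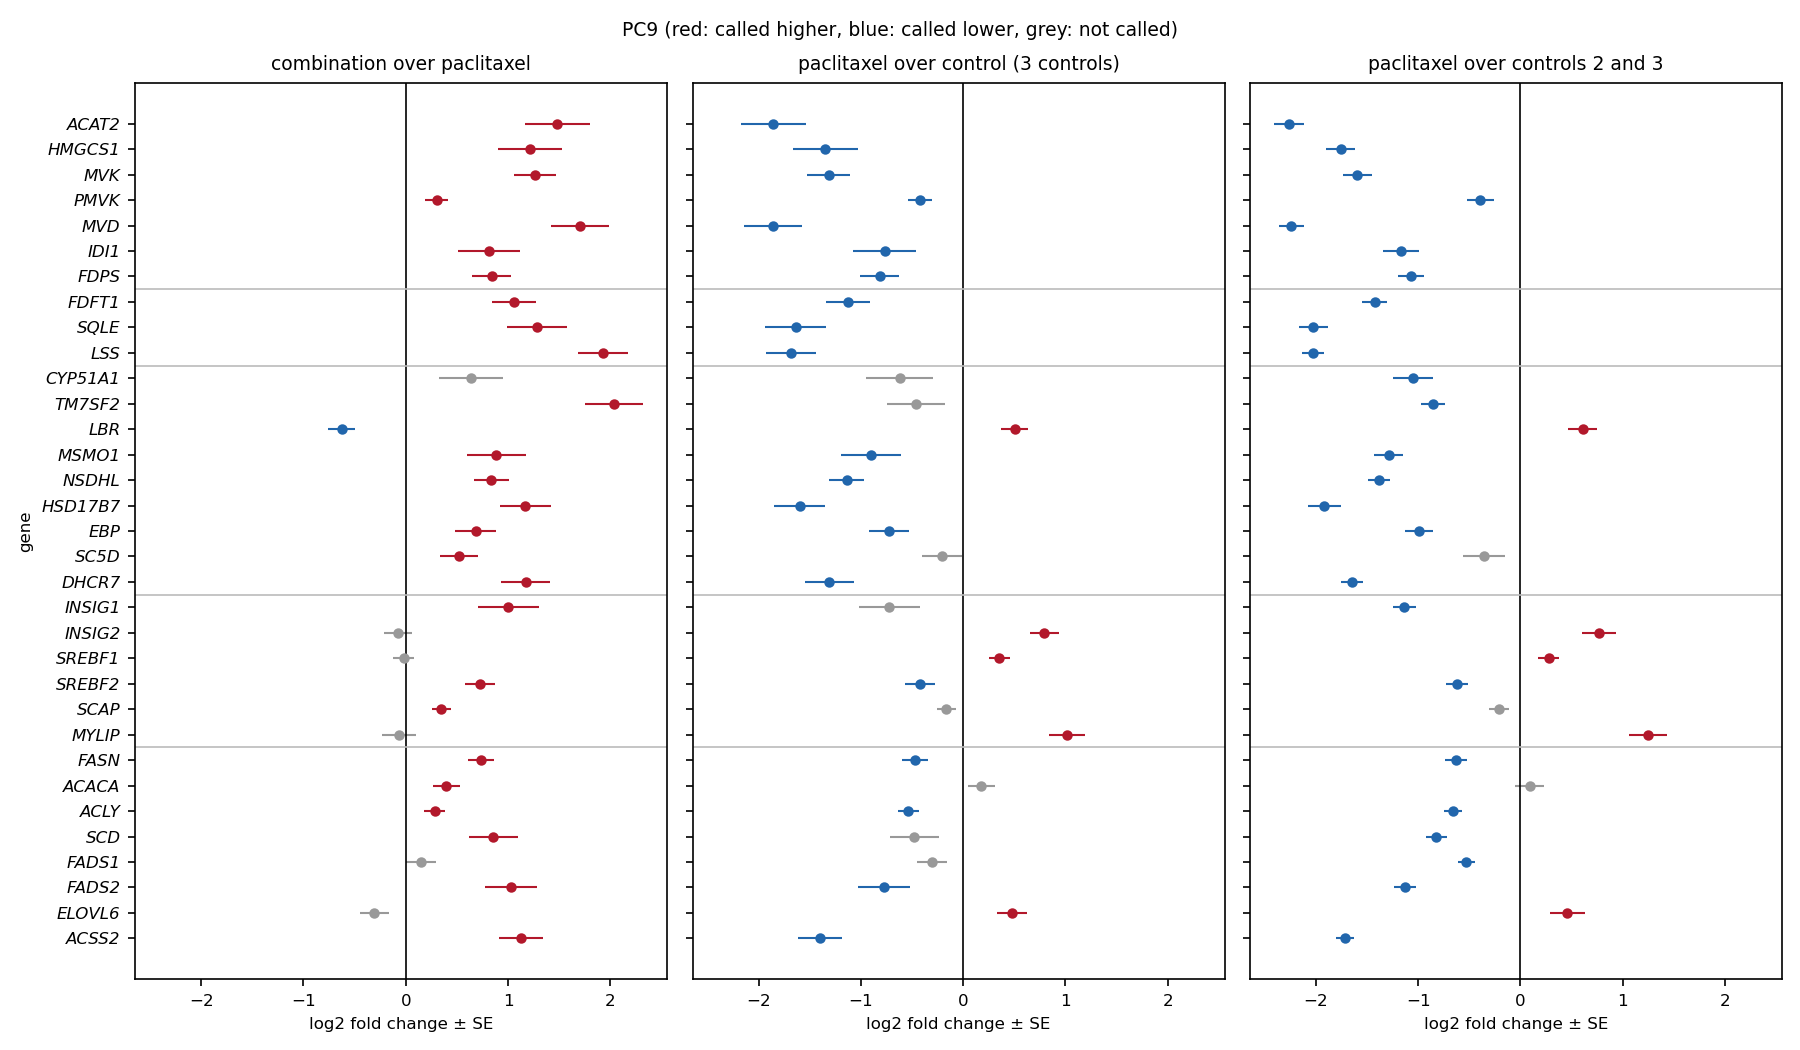
Log2 fold changes ± SE of the 33 members tested in PC9 (rows, grouped by step) for the combination over paclitaxel (left), paclitaxel over the 3 controls (middle) and paclitaxel over controls 2 and 3 (right). Red marks 26, 5 and 5 members called higher and blue 1, 20 and 25 called lower; LBR runs opposite to the rest of the sterol branch in each panel.

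Under almonertinib alone fewer members were called, and both their number and their direction depended on control 1. TM7SF2, INSIG2, SREBF1, MYLIP, PMVK and ELOVL6 rose with and without it, and ACLY and ACSS2 fell with and without it. With 3 controls 9 members rose and 2 fell (background 28.9% higher and 27.8% lower); without control 1, 6 rose and 9 fell (25.4% and 24.9%), and 8 of the calls were shared. The median of the sterol branch was 0.20 with 3 controls and -0.10 without control 1, and that of the fatty acid branch 0.24 and -0.09. The combination against the controls showed 5 members higher and 1 lower (24.7% and 26.0%), and 4 higher and 12 lower without control 1 (20.8% and 22.4%). Its sterol branch had 1 higher and 0 lower with 3 controls, and 1 higher and 9 lower without control 1, with medians of -0.07 and -0.36.

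Against almonertinib, 0 members rose and 1 fell in the combination, where 10.3% of all genes rose and 9.74% fell; PMVK was the member that fell, by 0.50 on the log2 scale. Without control 1, which enters this comparison through the estimate of the spread, 1 rose and 6 fell (10.5% and 9.88%). With all libraries, 6 of the 33 members had an unadjusted p under 0.05, beside 4390 of all 12796 genes. The interaction is the log2 difference of the combination from paclitaxel minus that of almonertinib from control. Since the doses within the combination are not given, it need not be the effect of adding the same dose of almonertinib. It was called higher in 13 members and lower in 5 (22.1% and 23.4% of all genes), and higher in 24 and lower in 5 without control 1 (21.0% and 22.2%). With the length and composition trend removed the split was 14 higher and 3 lower (22.7% and 21.8%). Its median was 0.82 in the sterol branch and 0.53 in the fatty acid branch, and 1.10 and 0.70 without control 1. Without almonertinib 3, the PC9 library that stood apart, 12 members rose and 3 fell under almonertinib (32.4% and 30.4% of all genes), 0 rose and 5 fell in the combination against almonertinib (15.3% and 17.1%), and the interaction was higher in 15 and lower in 5 (29.1% and 28.9%).

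**Figure D3:**
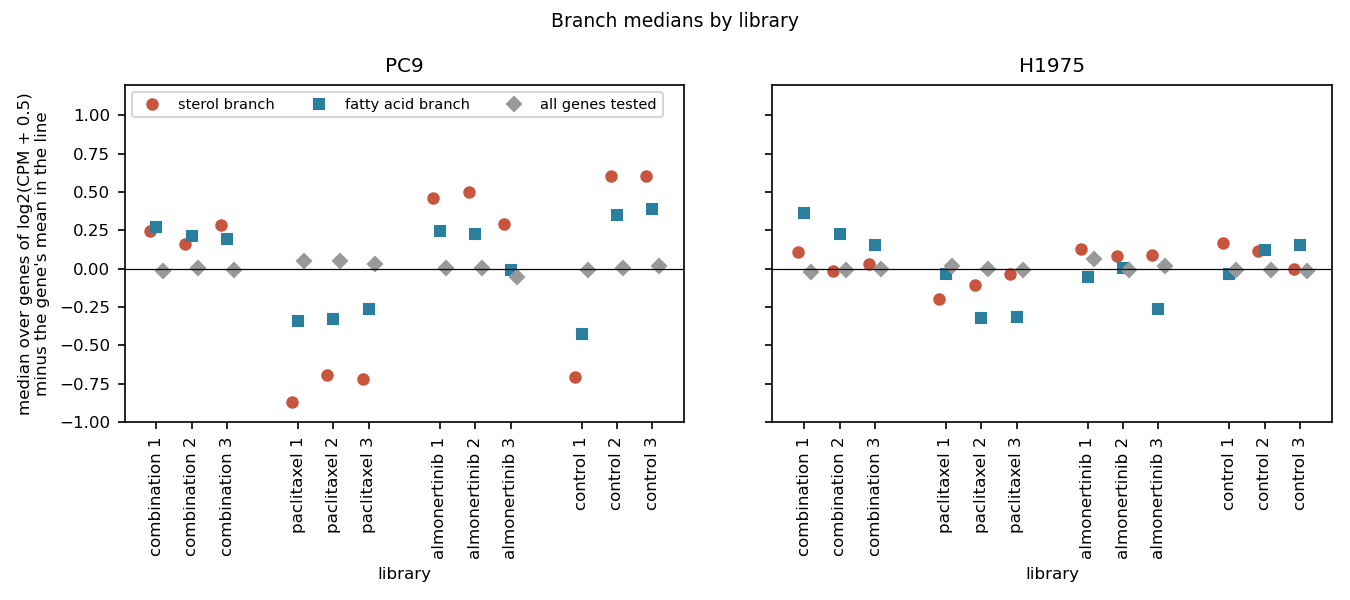
Median over the 19 sterol branch genes (circles), the 8 fatty acid branch genes (squares) and all genes tested (diamonds) of log2(CPM + 0.5) minus the gene's mean in the line, for each library of PC9 (left) and H1975 (right). In PC9 the sterol median lies between -0.87 and -0.69 in paclitaxel libraries and at -0.71 in control 1, against 0.605 and 0.601 in controls 2 and 3.

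The mevalonate stretch begins with ACAT2, which joins acetyl units, and HMGCS1, HMG-CoA synthase. HMGCS1 had 80.6, 80.3 and 81.04 CPM in the combination libraries and 30.9, 37.5 and 36.9 CPM in the paclitaxel libraries. In almonertinib libraries the values were 162, 153 and 105 CPM, and in control libraries 31.1, 123 and 112 CPM. The combination libraries lay within 1 CPM of each other and above every paclitaxel library, and control 1 sat among the paclitaxel values. Its log2 fold change was 1.22 ± 0.31 for the combination over paclitaxel (adjusted p = 0.00522) and -1.35 ± 0.32 for paclitaxel over the 3 controls (adjusted p = 0.00206), or -1.76 ± 0.14 over controls 2 and 3. For ACAT2 the same comparisons gave 1.48 ± 0.32 and -1.86 ± 0.32, and its interaction was 1.99 ± 0.44 (adjusted p = 0.00174). ACAT2 lies against TCP1 and SOD2 on the opposite strand, and the strand counted is not stated, so some of its reads may be theirs.

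IDI1, the isomerase that makes dimethylallyl diphosphate, had 27.7, 29.4 and 28.7 CPM in the combination libraries and 13.7, 17.01 and 18.5 CPM in the paclitaxel libraries. Almonertinib libraries held 45.7, 41.9 and 28.7 CPM and control libraries 10.5, 40.1 and 32.6 CPM. Its combination values were close together and above all paclitaxel values, and control 1 was below every other PC9 library. The log2 fold changes were 0.82 ± 0.30 for the combination over paclitaxel and -0.76 ± 0.31 for paclitaxel over control (adjusted p = 0.0379 and 0.0443), and the second was -1.17 without control 1. The kinase MVK and the decarboxylase MVD showed larger differences. MVD had 197, 193 and 207 CPM in the combination libraries and 52.7, 59.7 and 72.9 CPM in the paclitaxel libraries. It reached 241, 233 and 287 CPM under almonertinib and 89.98, 280.1 and 296 CPM in the controls. Every paclitaxel library was below every other PC9 library, control 1 included. MVD was 3.26-fold higher in the combination than in paclitaxel (1.70 ± 0.28) and stood at 0.275 of the control level under paclitaxel (-1.86 ± 0.28).

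MVK differed by 1.26 ± 0.21 and -1.31 ± 0.21 in the same comparisons, and FDPS by 0.84 ± 0.19 and -0.81 ± 0.19, all 4 called. PMVK, phosphomevalonate kinase, was the exception in size: it rose by 0.30 ± 0.11 in the combination over paclitaxel and fell by 0.42 on the log2 scale under paclitaxel against control. With the length and composition trend removed, PMVK was not called in these comparisons (0.07 and -0.13). All 7 genes of this stretch fell under paclitaxel and all 7 were higher in the combination than in paclitaxel.

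The next stretch commits farnesyl diphosphate to sterols. FDFT1, squalene synthase, was 2.09-fold higher in the combination than in paclitaxel (1.06 ± 0.21) and fell under paclitaxel against control (-1.13 ± 0.21). SQLE, the epoxidase that adds the oxygen of cholesterol, had 64.3, 64.7 and 67.7 CPM in the combination libraries and 24.01, 27.5 and 30.3 CPM in the paclitaxel libraries. The 3 almonertinib values were 75.6, 80.3 and 53.2 CPM, and the 3 control values 32.6, 113 and 106 CPM. Controls 2 and 3 held the highest values, and control 1 was just above the paclitaxel libraries. SQLE rose by 1.28 ± 0.30 in the combination over paclitaxel (adjusted p = 0.00243) and its paclitaxel difference from control was -1.64 ± 0.30 (adjusted p = 0.000308). Without control 1 it also fell under almonertinib (-0.64, adjusted p = 0.00134) and in the combination (-0.74, adjusted p = 0.000599), neither of which was called with 3 controls.

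LSS, which closes the rings of lanosterol, had 154, 134 and 155 CPM in the combination libraries and 34.1, 40.3 and 43.7 CPM in the paclitaxel libraries. Under almonertinib alone there were 159, 168 and 165 CPM, against 58.4, 148 and 169.5 CPM in the controls. The almonertinib libraries lay within the range of controls 2 and 3, the combination libraries reached a little lower, and each paclitaxel library was below all others. LSS was 3.8-fold higher in the combination than in paclitaxel (1.93 ± 0.25, adjusted p = 1.54e-05), and its paclitaxel difference from control was -1.69 ± 0.25 (adjusted p = 5.04e-05). The interaction was called for all 3 genes of the stretch, at 1.28 for FDFT1, 1.54 for SQLE and 1.52 for LSS, and it was called for all 3 without control 1 as well.

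After lanosterol, TM7SF2 and LBR encode reductases that act on the same double bond, and LBR is also the lamin B receptor of the inner nuclear membrane. TM7SF2 had 224, 204 and 238 CPM in the combination libraries and 51.1, 55.3 and 58.2 CPM in the paclitaxel libraries. With almonertinib alone it stood at 250, 257 and 317 CPM, and in the controls at 28.3, 96.9 and 99.2 CPM. Both groups with almonertinib were above every other PC9 library, and the paclitaxel libraries lay between control 1 and controls 2 and 3. It rose by 1.90 ± 0.28 under almonertinib (3.72-fold, adjusted p = 3.37e-05) and by 1.57 ± 0.28 in the combination against control, and was 4.1-fold higher in the combination than in paclitaxel. Without control 1 the almonertinib and combination rises were 1.499 and 1.18, and TM7SF2 then also fell under paclitaxel (-0.86), a difference of -0.46 that was not called with 3 controls or with the length and composition trend removed (-0.19).

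LBR had 34.3, 39.3 and 36.5 CPM in the combination libraries and 57.5, 58.7 and 55.6 CPM in the paclitaxel libraries. In almonertinib libraries the values were 53.3, 46.1 and 34.9 CPM, and in control libraries 44.9, 39.5 and 34.8 CPM. The paclitaxel libraries were above all others, so that LBR moved against its neighbours: it rose by 0.50 ± 0.13 under paclitaxel and was -0.63 ± 0.13 in the combination over paclitaxel, the only sterol branch member called lower there. The rise under paclitaxel turned round when the length and composition trend was removed (-0.25, adjusted p = 0.00697), and the fall in the combination against paclitaxel shrank to -0.17. Rank correlations of each library's deviation with transcript length were 0.267 to 0.319 in the PC9 paclitaxel libraries and -0.237 to -0.138 in the PC9 controls, so transcript length moved with this comparison.

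NSDHL, which acts in the removal of methyl groups from the sterol ring, had 102, 91.9 and 102 CPM in the combination libraries and 52.2, 56.5 and 59.01 CPM in the paclitaxel libraries. Almonertinib libraries held 82.4, 97.6 and 106 CPM and control libraries 77.2, 136 and 152 CPM. The combination and almonertinib libraries overlapped each other and lay between control 1 and the other controls, above paclitaxel. Its difference was 0.84 ± 0.17 in the combination over paclitaxel and -1.14 ± 0.17 in paclitaxel over control. HSD17B7, a ketoreductase of the same step with a closely similar pseudogene copy that could share its reads, had 16.5, 14.2 and 18.2 CPM in the combination libraries and 7.31, 8.15 and 6.43 CPM in the paclitaxel libraries. It reached 12.3, 17.7 and 14.9 CPM under almonertinib and 11.4, 26.9 and 27.7 CPM in the controls. Paclitaxel was again lowest, and the interaction of HSD17B7 was 1.70 ± 0.34 (adjusted p = 0.000892).

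DHCR7, a reductase of the last steps, was 2.26-fold higher in the combination than in paclitaxel (1.17 ± 0.24), MSMO1 1.85-fold and EBP 1.6-fold, and all 3 fell under paclitaxel against control (-1.31, -0.90 and -0.72). SC5D, the desaturase before DHCR7, was higher in the combination than in paclitaxel (0.52 ± 0.19); its paclitaxel difference from control, -0.20 ± 0.20, was not called, and with the length and composition trend removed it was -0.83 and called. CYP51A1, the demethylase of lanosterol, was not called in the combination over paclitaxel (0.64 ± 0.32) nor in paclitaxel over control (-0.62 ± 0.32), and was called in both without control 1. It had at most 6.91 CPM in PC9, and 79.35% of its exon bases also belong to a second annotated gene on the same strand, AC000120.2, so its reads may have been left uncounted or split.

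**Figure D4:**
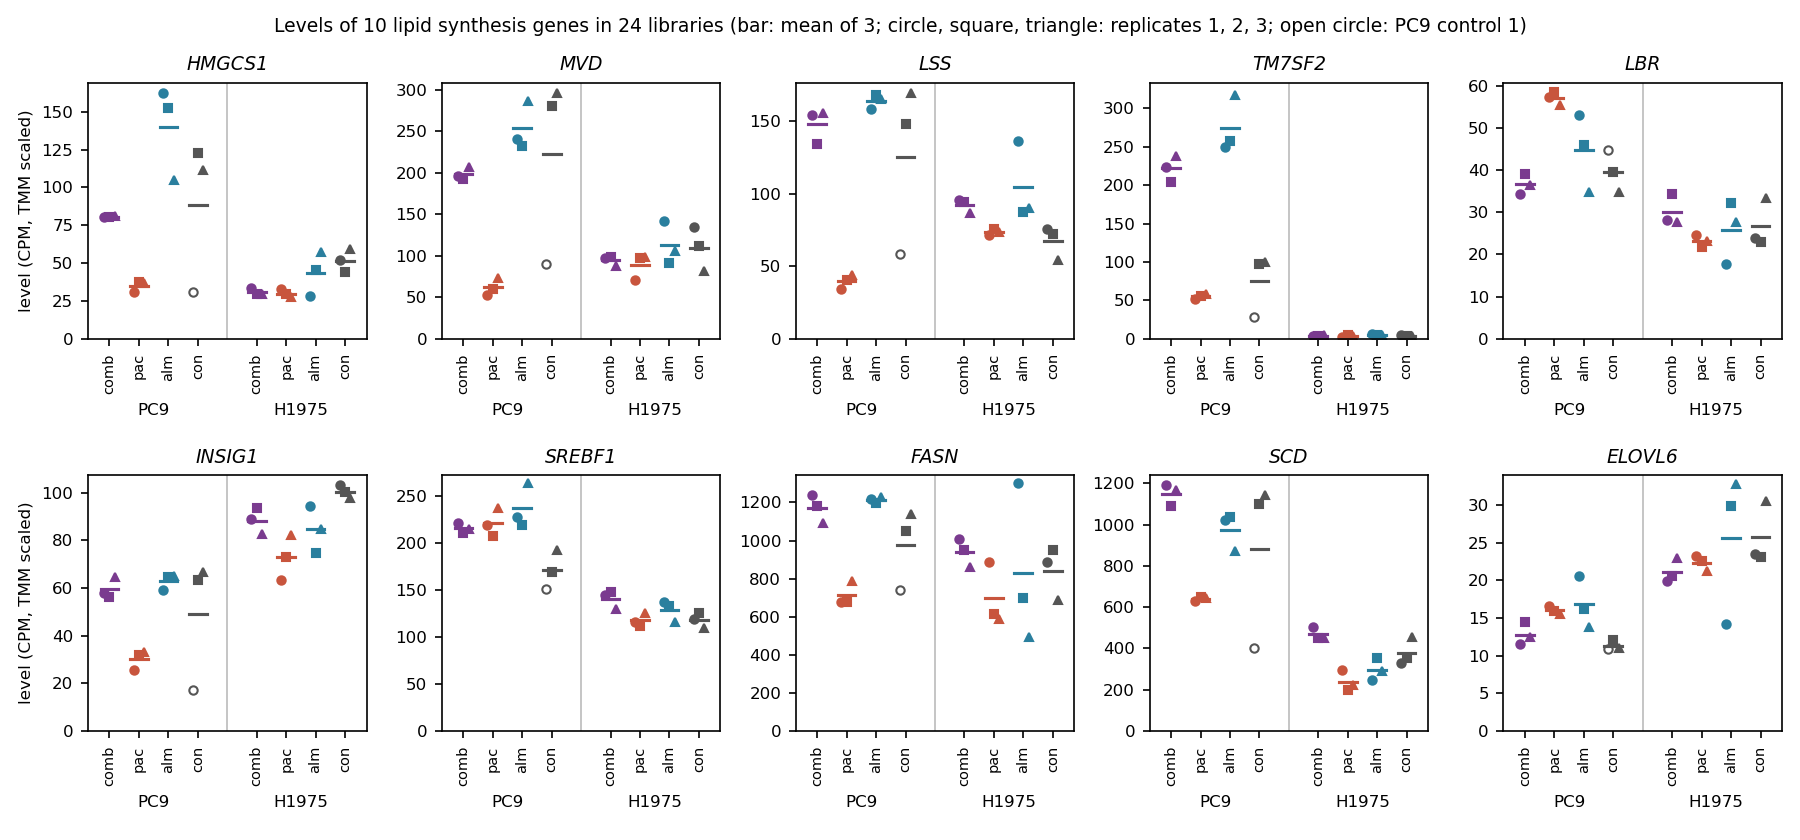
CPM on the TMM scale (linear axis from 0) of 10 genes in the 24 libraries, with PC9 to the left and H1975 to the right of the grey line in each panel, symbols for replicates 1 to 3 and a bar at the mean of 3. In PC9 the 3 paclitaxel libraries lie below the combination libraries for all panels but LBR, SREBF1 and ELOVL6, and the open circle, PC9 control 1, lies below controls 2 and 3 for all panels but LBR.

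Among the regulators, INSIG1, an SREBP target that holds SCAP back, had 57.8, 56.1 and 64.6 CPM in the combination libraries and 25.5, 31.6 and 32.9 CPM in the paclitaxel libraries. The 3 almonertinib values were 58.97, 64.5 and 65.1 CPM, and the 3 control values 17.2, 63.5 and 66.8 CPM. The paclitaxel libraries were below every library of the other groups except control 1, which was the lowest of the 12. INSIG1 rose by 1.00 ± 0.30 in the combination over paclitaxel (adjusted p = 0.0121); in paclitaxel over control its -0.72 ± 0.30 was not called with 3 controls (adjusted p = 0.0508) and was -1.14 without control 1 (adjusted p = 2.47e-06). INSIG2, which does the same work without being a sterol-driven target, had 14.05, 13.9 and 13.7 CPM in the combination libraries and 16.4, 15.3 and 12.7 CPM in the paclitaxel libraries. Under almonertinib alone there were 20.1, 18.01 and 14.8 CPM, against 8.104, 9.21 and 7.93 CPM in the controls. All 9 drug-treated libraries were above all 3 controls, and INSIG2 rose by 1.07 ± 0.14 under almonertinib, 0.79 ± 0.14 under paclitaxel and 0.72 ± 0.14 in the combination. With the length and composition trend removed, these were 0.47, 0.06 and 0.46, and the paclitaxel value was not called.

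SREBF2 had 522, 472 and 506 CPM in the combination libraries and 279, 313 and 325 CPM in the paclitaxel libraries. With almonertinib alone it stood at 398, 416 and 471 CPM, and in the controls at 284, 440 and 487 CPM. The combination libraries were higher than all paclitaxel libraries and than all almonertinib libraries, and control 1 was within the paclitaxel range. It rose by 0.73 ± 0.14 in the combination over paclitaxel and fell by 0.42 on the log2 scale under paclitaxel against control (-0.42 ± 0.14, adjusted p = 0.0209). SREBF1 had 221, 211 and 214 CPM in the combination libraries and 219, 207 and 236 CPM in the paclitaxel libraries. In almonertinib libraries the values were 227, 219 and 264 CPM, and in control libraries 150.4, 168 and 193 CPM. Every treated library exceeded every control, and unlike SREBF2 it did not differ between the combination and paclitaxel beyond its error (-0.02 ± 0.10), though with the length and composition trend removed it fell there (-0.31). SREBF1 rose by 0.48 ± 0.10 under almonertinib, 0.35 ± 0.10 under paclitaxel and 0.33 ± 0.10 in the combination. The last was not called without control 1 (0.25, adjusted p = 0.0633) or with the trend removed (0.14, adjusted p = 0.056).

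SCAP was higher in the combination than in paclitaxel (0.35 ± 0.09), but not with the length and composition trend removed (0.08). MYLIP, a ubiquitin ligase that degrades lipoprotein receptors and is a target of the sterol-activated liver X receptors, had 9.35, 8.897 and 9.55 CPM in the combination libraries and 9.52, 10.6 and 9.34 CPM in the paclitaxel libraries. Almonertinib libraries held 8.6, 8.09 and 5.98 CPM and control libraries 6.01, 3.79 and 4.39 CPM. The combination and paclitaxel libraries were all above the controls, and 1 almonertinib library was just below control 1. MYLIP rose by 0.67 ± 0.18, 1.02 ± 0.18 and 0.95 ± 0.18 under almonertinib, paclitaxel and both drugs.

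In PC9 the fatty acid branch had smaller median differences than the sterol branch in the combination against paclitaxel and in paclitaxel against control. With 3 controls this was not so under almonertinib or in the combination against control. Without control 1 the fatty acid medians there were -0.09 and -0.03, beside -0.10 and -0.36 in the sterol branch. Members of the fatty acid branch differed among themselves. ACSS2, which makes acetyl-CoA from acetate, had 114, 103 and 119 CPM in the combination libraries and 49.7, 53.6 and 52.5 CPM in the paclitaxel libraries. It reached 87.6, 92.9 and 96.7 CPM under almonertinib and 68.9, 164 and 174 CPM in the controls. The paclitaxel libraries were lowest and controls 2 and 3 highest. ACSS2 was 2.18-fold higher in the combination than in paclitaxel (1.13 ± 0.22) and its paclitaxel difference from control was -1.40 ± 0.22. ACLY, which makes acetyl-CoA from citrate, had 210.1, 191 and 191 CPM in the combination libraries and 163, 162 and 167 CPM in the paclitaxel libraries. The 3 almonertinib values were 169, 189.9 and 165 CPM, and the 3 control values 193, 245 and 267 CPM. All groups with a drug had lower means than the controls, and ACLY fell by 0.54 under paclitaxel, 0.42 under almonertinib and 0.26 in the combination on the log2 scale; only the first was called with the length and composition trend removed.

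FASN, fatty acid synthase, had 1241, 1184 and 1094 CPM in the combination libraries and 675, 678 and 786 CPM in the paclitaxel libraries. Under almonertinib alone there were 1218, 1197 and 1229 CPM, against 737, 1049 and 1137 CPM in the controls. The paclitaxel libraries were below every combination and almonertinib library and overlapped control 1. FASN rose by 0.73 ± 0.13 in the combination over paclitaxel (adjusted p = 0.000299) and its paclitaxel difference from control was -0.47 ± 0.13 (adjusted p = 0.00622). SCD, the desaturase that makes oleate, had 1189, 1089 and 1165 CPM in the combination libraries and 630.2, 648 and 646 CPM in the paclitaxel libraries. With almonertinib alone it stood at 1021, 1036 and 872 CPM, and in the controls at 401, 1097 and 1144 CPM. Control 1 was lower than every paclitaxel library, and the combination libraries were level with controls 2 and 3. SCD rose by 0.86 ± 0.24 in the combination over paclitaxel; for paclitaxel over control it was -0.48 ± 0.24, not called with 3 controls (adjusted p = 0.104), and -0.82 without control 1 (adjusted p = 2.66e-05).

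FADS2, a desaturase of polyunsaturated fatty acids, had 278, 257 and 289.9 CPM in the combination libraries and 122, 136 and 150.2 CPM in the paclitaxel libraries. In almonertinib libraries the values were 272, 283 and 330.3 CPM, and in control libraries 101, 279 and 309.6 CPM. Its paclitaxel libraries were below all others except control 1, and it differed by 1.03 ± 0.25 in the combination over paclitaxel and by -0.77 ± 0.25 in paclitaxel over control. FADS1, its neighbour on chromosome 11 with which it shares bases on the opposite strand, was at 0.15 and -0.31, neither of them called with 3 controls; without control 1 it fell under paclitaxel (-0.53). ACACA, acetyl-CoA carboxylase, rose in the combination against paclitaxel (0.40 ± 0.13) and against control (0.58 ± 0.13), and under paclitaxel stood at 0.18 ± 0.14, not called. ELOVL6, which lengthens palmitate, had 11.5, 14.4 and 12.4 CPM in the combination libraries and 16.6, 15.9 and 15.6 CPM in the paclitaxel libraries. Almonertinib libraries held 20.6, 16.2 and 13.8 CPM and control libraries 10.9, 12.1 and 10.97 CPM. The paclitaxel and almonertinib libraries were all above the controls, and it rose by 0.58 ± 0.14 and 0.48 ± 0.14 under almonertinib and paclitaxel; with the length and composition trend removed these were 0.17 and -0.14, neither called, and the sign under paclitaxel turned round.

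In H1975 no member passed the test in any of the 5 pairwise comparisons, and few genes of any kind did. The share of the 12345 genes called was 1.95% under almonertinib, 0.640% under paclitaxel and 2.46% in the combination, each against control, and 0.00% in the combination against either single drug. At an unadjusted p under 0.05, 3 of the 34 members differed under almonertinib, 11 under paclitaxel and 5 in the combination against control. There were 4 in the combination against almonertinib and 8 against paclitaxel. Of all 12345 genes, 1283, 1007, 2300, 1230 and 1704 differed at that p in the same order. DESeq2 called 0, 4, 2, 0 and 5 members in the same order, beside 2.86%, 1.39%, 5.85%, 0.510% and 4.80% of all genes. Without the 3 H1975 libraries that stood apart, edgeR called 7 members higher and 11 lower under almonertinib (background 23.9% and 21.6%), 0 and 9 under paclitaxel (3.58% and 5.25%) and 6 and 6 in the combination (15.8% and 19.2%). In the same fit 9 were higher and 5 lower in the combination against almonertinib (15.1% and 19.2%), and 12 higher and 1 lower in the combination against paclitaxel (16.7% and 16.3%).

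The direction under paclitaxel in H1975 was mostly downward: 30 of 34 log2 fold changes were negative, beside 6872 of all 12345 genes. Medians were -0.22 in the sterol branch, -0.31 in the regulators and -0.32 in the fatty acid branch, beside -0.03 over all genes. The libraries of the groups did not overlap in 12 members, all lower, where 13.8% of all genes did not overlap in either direction. In the combination against paclitaxel 15 members were higher without overlap and 0 lower (30.9% of all genes in either direction), with medians of 0.14 in the sterol branch and 0.48 in the fatty acid branch. The larger median was that of the sterol branch in PC9 and that of the fatty acid branch in H1975, a difference in order that was not tested.

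HMGCS1 in H1975 had 33.7, 29.5 and 29.7 CPM in the combination libraries and 32.7, 29.3 and 27.5 CPM in the paclitaxel libraries. It reached 28.1, 45.2 and 57.4 CPM under almonertinib and 51.9, 43.8 and 59.2 CPM in the controls. The paclitaxel and combination libraries were below all controls, and the almonertinib libraries were spread over the whole range. Its log2 fold change under paclitaxel was -0.81 ± 0.22 (adjusted p = 0.159) and, without the libraries that stood apart, -0.77 (adjusted p = 0.00192). SQLE had 49.3, 49.6 and 44.4 CPM in the combination libraries and 29.02, 24.3 and 26.9 CPM in the paclitaxel libraries. The 3 almonertinib values were 27.4, 41.1 and 41.8 CPM, and the 3 control values 40.1, 40.01 and 51.9 CPM. The 3 paclitaxel libraries were below the combination and control libraries. SQLE was 0.83 ± 0.19 in the combination over paclitaxel (adjusted p = 0.0746) and -0.73 ± 0.19 in paclitaxel over control (adjusted p = 0.118), and both were called without the libraries that stood apart (0.90 and -0.66).

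LSS had 95.8, 93.9 and 86.5 CPM in the combination libraries and 71.6, 75.3 and 73.7 CPM in the paclitaxel libraries. Under almonertinib alone there were 137, 87.2 and 89.7 CPM, against 75.4, 72.2 and 54.4 CPM in the controls. The almonertinib and combination libraries were above all controls, while paclitaxel overlapped them, at 0.62 ± 0.17 under almonertinib and 0.44 ± 0.17 in the combination (adjusted p = 0.0957 and 0.191). HSD17B7 had 11.8, 12.6 and 10.7 CPM in the combination libraries and 8.16, 8.07 and 9.48 CPM in the paclitaxel libraries. With almonertinib alone it stood at 10.3, 10.2 and 7.43 CPM, and in the controls at 5.51, 6.94 and 8.13 CPM. It was highest in the combination libraries, at 0.75 ± 0.20 over control (adjusted p = 0.061), and 0.91 without the libraries that stood apart (adjusted p = 0.000781). IDI1 had 12.4, 11.1 and 11.5 CPM in the combination libraries, 13.1, 14.3 and 9.88 CPM in the paclitaxel libraries, 7.91, 15.2 and 18.6 CPM in the almonertinib libraries and 12.1, 11.2 and 14.9 CPM in the control libraries, with all groups overlapping. TM7SF2 was at 2.58 to 5.63 CPM in every H1975 library, NSDHL at 68.4 to 99.2 CPM and MVD at 71.1 to 142 CPM, and none of these 3 was called.

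INSIG1 in H1975 had 88.8, 93.4 and 82.7 CPM in the combination libraries and 63.3, 73.1 and 82.4 CPM in the paclitaxel libraries. In almonertinib libraries the values were 94.5, 74.8 and 84.9 CPM, and in control libraries 103, 100.3 and 97.9 CPM. All 9 treated libraries were below all 3 controls, and the paclitaxel difference was -0.47 ± 0.14 (adjusted p = 0.207; -0.40 and 0.0236 without the libraries that stood apart). SREBF2 had 285, 269.9 and 251 CPM in the combination libraries and 183, 192 and 205 CPM in the paclitaxel libraries. Almonertinib libraries held 257, 230.1 and 204 CPM and control libraries 238, 250 and 225 CPM. Its paclitaxel libraries were below all combination and control libraries, and its combination libraries above all controls. The combination differed from paclitaxel by a log2 fold change of 0.47 ± 0.14 (adjusted p = 0.146). SREBF1 had 144, 147 and 129 CPM in the combination libraries and 116, 112 and 125 CPM in the paclitaxel libraries. It reached 137, 132 and 115 CPM under almonertinib and 119, 125 and 109 CPM in the controls. The combination libraries were above the paclitaxel and control libraries, by 0.25 ± 0.14 and 0.24 ± 0.14, neither called. INSIG2 had 5.53, 5.23 and 5.88 CPM in the combination libraries, 6.03, 4.897 and 4.66 CPM in the paclitaxel libraries, 4.203, 4.74 and 6.72 CPM in the almonertinib libraries and 6.83, 5.47 and 10.01 CPM in the control libraries. INSIG2 overlapped between all groups. MYLIP had 8.59, 8.502 and 7.04 CPM in the combination libraries and 7.79, 4.79 and 5.06 CPM in the paclitaxel libraries. The 3 almonertinib values were 5.77, 6.96 and 6.51 CPM, and the 3 control values 3.41, 4.91 and 6.85 CPM. MYLIP was higher in all combination libraries than in any control, and not called (0.65 ± 0.26, adjusted p = 0.197).

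SCD in H1975 had 505, 452 and 451 CPM in the combination libraries and 293, 196 and 221 CPM in the paclitaxel libraries. Under almonertinib alone there were 248, 354 and 288 CPM, against 329, 353 and 454 CPM in the controls. The combination libraries were above all paclitaxel and almonertinib libraries, and the paclitaxel libraries below all controls. The difference between combination and paclitaxel was 0.98 ± 0.20 (adjusted p = 0.0625). SCD was the 1 member whose interaction was called in H1975 (1.34 ± 0.29, adjusted p = 0.0437), where 0.672% of all genes were called. For the interaction 11 of the 34 members had an unadjusted p under 0.05, beside 1267 of all 12345 genes. In 9 of the 12 fits with 1 H1975 library left out, and with the repeat number as a block, no member's interaction was called. DESeq2 called 3 (2.10% of all genes). Without the libraries that stood apart 14 were higher, among them 7 of the 8 fatty acid genes, and 2 lower (16.4% and 16.5%).

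FADS2 in H1975 had 32.1, 31.7 and 30.2 CPM in the combination libraries and 22.2, 23.7 and 24.4 CPM in the paclitaxel libraries. With almonertinib alone it stood at 34.9, 25.7 and 21.9 CPM, and in the controls at 36.8, 36.3 and 34.3 CPM. Its paclitaxel libraries were below all control and combination libraries, at -0.62 ± 0.16 under paclitaxel (adjusted p = 0.118; -0.62 and 0.00313 without the libraries that stood apart). FASN had 1010, 948 and 859 CPM in the combination libraries and 888, 614 and 590.1 CPM in the paclitaxel libraries. In almonertinib libraries the values were 1303, 696 and 494 CPM, and in control libraries 888, 952 and 687 CPM. The almonertinib libraries spanned the range of all groups, with almonertinib 1, a library that stood apart, at the top. ACLY had 368, 344 and 326 CPM in the combination libraries and 298, 220 and 190.4 CPM in the paclitaxel libraries. Almonertinib libraries held 355, 266 and 190.1 CPM and control libraries 271, 338 and 295 CPM. Its highest value was that of combination 1. ACSS2 had 66.5, 64.7 and 64.7 CPM in the combination libraries and 65.6, 58.5 and 59.7 CPM in the paclitaxel libraries. It reached 93.97, 57.4 and 50.1 CPM under almonertinib and 60.2, 69.5 and 53.1 CPM in the controls. ELOVL6 had 19.98, 20.6 and 22.9 CPM in the combination libraries and 23.2, 22.6 and 21.3 CPM in the paclitaxel libraries. The 3 almonertinib values were 14.2, 29.9 and 32.9 CPM, and the 3 control values 23.5, 23.1 and 30.5 CPM. Almonertinib 1 held the highest ACSS2 value and the lowest ELOVL6 value of the 12 H1975 libraries. Over all 34 members the H1975 log2 fold changes against control ran from -0.81 to 0.75.

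The response to a drug was also compared between the lines, as PC9 minus H1975, in a fit of all 24 libraries and 13380 genes. Under paclitaxel 2 members were called higher and 7 lower (9.90% and 7.21% of all genes). LSS (-1.80 ± 0.34), ACAT2 (-1.85 ± 0.39), HSD17B7 (-1.91 ± 0.34), MVD (-1.54 ± 0.38), ACSS2 (-1.39 ± 0.32), MVK (-1.17 ± 0.31) and NSDHL (-0.99 ± 0.24) responded more negatively in PC9, and INSIG2 (1.34 ± 0.28) and LBR (0.73 ± 0.26) more positively. By branch 6 of 19 sterol genes and 1 of 8 fatty acid genes were called lower. Under almonertinib 2 were higher and 1 lower (5.53% and 11.0%), and in the combination 2 higher and 1 lower (6.99% and 11.0%), TM7SF2 and INSIG2 higher and HSD17B7 lower in each. With the length and composition trend removed the almonertinib count was 5 higher and 0 lower (14.9% and 14.2%). Without PC9 control 1 the counts were 3 higher and 15 lower under paclitaxel, 2 and 3 under almonertinib and 2 and 5 in the combination, beside 9.28% and 5.81%, 4.38% and 7.89%, and 4.97% and 7.67% of all genes. Without the 4 libraries that stood apart 6 were called higher and 8 lower under paclitaxel (20.9% and 14.8%), 7 and 1 under almonertinib (16.1% and 13.8%), and 4 and 3 in the combination (38.6% of all genes in either direction).

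**Figure D5:**
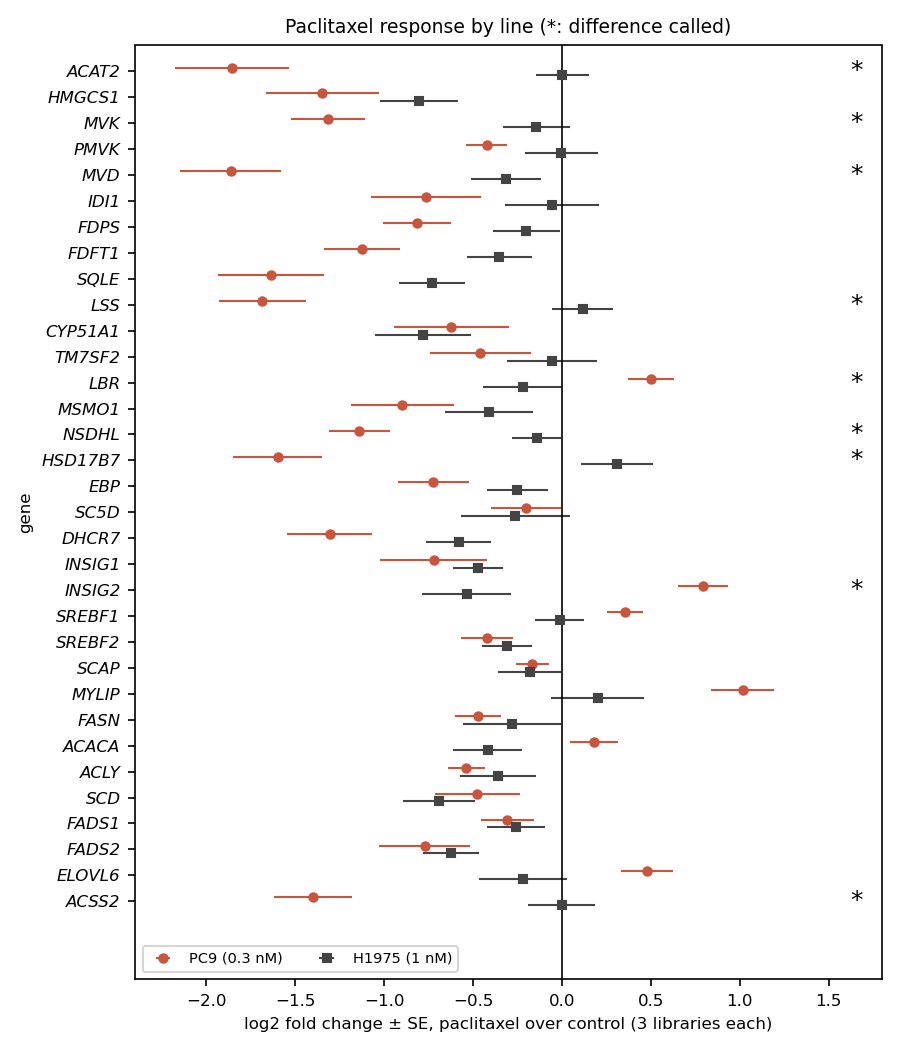
Log2 fold change ± SE of paclitaxel over control (3 libraries each) for 33 members in PC9 at 0.3 nM (circles) and in H1975 at 1 nM (squares), with an asterisk at the right for the 9 members whose difference between lines was called. LSS stands at -1.69 in PC9 and 0.12 in H1975, while SCD stands at -0.48 and -0.69.

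Another 5 lists of lipid genes, 74 genes in all, were read beside the members in PC9. The shares of all genes called, against which their counts are read, were 28.9% higher and 27.8% lower under almonertinib, 27.0% and 28.0% under paclitaxel, and 24.7% and 26.0% in the combination, each against the 3 controls. Of 21 genes of sterol transport and esterification, 6 rose and 8 fell under almonertinib, 5 and 7 under paclitaxel, and 6 and 9 in the combination, with medians of 0.02, -0.09 and 0.06. Without control 1 the counts were 5 and 8, 5 and 6, and 5 and 7. GRAMD1C, which moves cholesterol from the plasma membrane to the endoplasmic reticulum, rose by 2.30 ± 0.26 under almonertinib, 2.21 ± 0.26 under paclitaxel and 2.27 ± 0.26 in the combination. ABCG1, a sterol exporter and liver X receptor target, rose by 0.81 ± 0.19, 1.79 ± 0.18 and 1.02 ± 0.19, and LRP8, a lipoprotein receptor, fell by 0.94 under almonertinib and 0.79 in the combination on the log2 scale. GRAMD1B, in the same list as GRAMD1C, went the other way under almonertinib (-1.57 ± 0.14). In the combination against paclitaxel, where 26 of the 33 members rose, this list had 4 higher and 4 lower (21.7% and 22.4% of all genes).

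Of 9 genes of SREBP processing and sterol-regulated degradation, 4 rose and 2 fell under paclitaxel (27.0% and 28.0% of all genes; median 0.23), and 3 and 2 without control 1. SPRING1, which aids SREBP cleavage, fell by 0.59 on the log2 scale. Of 9 genes of the other isoprenoid branches, GGPS1, which makes geranylgeranyl diphosphate, rose under almonertinib (1.14 ± 0.18), paclitaxel (0.76 ± 0.18) and both (0.61 ± 0.19), and PDSS1, for the side chain of ubiquinone, fell under almonertinib (-0.92 ± 0.21) and both (-1.76 ± 0.23). In the combination against paclitaxel 0 of these 9 rose and 3 fell (21.7% and 22.4% of all genes; median -0.22). Of 22 further fatty acid genes tested, 9 rose and 4 fell under almonertinib, 8 and 4 under paclitaxel, and 6 and 3 in the combination, and without control 1 there were 9 and 4, 5 and 5, and 6 and 3. ACSL5 rose under paclitaxel (0.61 ± 0.11) and both drugs (0.51 ± 0.11), and ELOVL1 fell under almonertinib (-0.53 ± 0.11) and paclitaxel (-0.65 ± 0.11). Of 10 glycerolipid genes 1 rose and 6 fell under paclitaxel (median -0.35), and 0 and 6 without control 1. LPIN3 fell by 0.95 on the log2 scale under paclitaxel, and DGAT2, the last enzyme of triglyceride synthesis, fell under almonertinib (-0.88 ± 0.13) and both drugs (-1.06 ± 0.13). The calls of the genes named from these lists were also made without control 1, in the same direction.

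In H1975, 0 of the 69 genes of these lists that were tested were called by edgeR against control in any group. At an unadjusted p under 0.05 there were 12 in the combination, 4 under paclitaxel and 2 under almonertinib. Of all 12345 genes, 2300, 1007 and 1283 were under that p in the same order. DESeq2 called 3, 1 and 0 of the 69, beside 5.85%, 1.39% and 2.86% of all genes.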

How the data were processed

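The authors deposited raw read counts per gene for all 24 libraries. Per the labels, TRIzol was used for extraction and a SMART-RNAseq kit for the libraries. Per the submitters' processing notes, HISAT2 2.2.1, HTSeq and GRCh38 were used; counting parameters, annotation and strand are not given in the sources used here. Symbols came from a reference list of gene names, with GENCODE v29 for genes missing there (19695 of 19702 genes). Transcript lengths and base composition came from GENCODE v29 (19603 genes). The members, lists and tests were chosen with earlier results of these data known.

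Each line was fitted alone, in R 4.3.3 with edgeR 4.0.16, after filterByExpr (12796 genes in PC9, 12345 in H1975) and TMM. The quasi-likelihood model had 1 coefficient per group, tests were two-sided, and p-values were adjusted by Benjamini-Hochberg within a comparison. Differences between lines used all 24 libraries (13380 genes). The biological coefficient of variation was 0.111 in PC9 and 0.191 in H1975. Errors of log2 fold changes are the model's standard errors. Scripts were tested on simulated data.

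Alternatives were RLE size factors, no filter, DESeq2 1.42.0, a stricter filter (at least 1 CPM in 3 libraries with a mean of at least 5 CPM), the repeat number as a block, a length and GC trend removed (spline, 5 degrees of freedom), and each library left out. Chosen after seeing the data were fits without the libraries that stand apart (whose best correlation with its group is over 0.005 below that between the other 2 libraries) and, in PC9, also without control 1. Same-numbered libraries correlated by over 0.1 in every pair only between H1975 combination and control (0.103, 0.161 and 0.33, correlations of deviations from the group means); the block changed no call there. By rule, values per library are given for 10 fixed genes and for the 3 sterol, 2 regulator and 2 fatty acid genes with the smallest p in each line; MVD and LBR were added after seeing the data.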

Additional observations from a re-analysis of the deposited data

Results flagged for a closer look

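In 15 cases a response differed between PC9 and H1975 by an edgeR test of the difference itself (PC9 minus H1975, adjusted p under 0.05 over 13380 genes); the doses also differed. Under paclitaxel they were ACAT2 (-1.85), MVK (-1.17), MVD (-1.54), LSS (-1.80), NSDHL (-0.990), HSD17B7 (-1.91), ACSS2 (-1.39), LBR (0.735) and INSIG2 (1.34) on the log2 scale. Under almonertinib they were TM7SF2 (1.47), HSD17B7 (-0.981) and INSIG2 (1.57), and in the combination TM7SF2 (1.60), HSD17B7 (-1.20) and INSIG2 (1.15).

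All 15 were also called without PC9 control 1. Of 32 alternatives, the LBR difference under paclitaxel was not called in 15, among them the fit with the length and composition trend removed (0.0216, adjusted p = 0.957), and the HSD17B7 difference under almonertinib in 22, of which 19 left out 1 library. TM7SF2 under almonertinib and in the combination lost its call without H1975 control 1, and MVK under paclitaxel and HSD17B7 in the combination lost theirs without PC9 control 3. The other 9 were called in every alternative. TM7SF2 had at most 5.63 CPM in H1975, and reads of HSD17B7 may be shared with a pseudogene copy.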

How the results depend on the processing

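The PC9 counts and medians for the combination against paclitaxel and for paclitaxel against control kept their direction and size under RLE factors, other filters, DESeq2 and the block: with 1 library left out, the combination against paclitaxel had 19 to 28 members called, with sterol medians of 0.987 to 1.12 and fatty acid medians of 0.515 to 0.608, and paclitaxel against control 21 to 30, with medians of -1.38 to -0.911 and -0.645 to -0.301. For each library left out in turn the PC9 counts were 8 to 15 under almonertinib, 5 to 16 in the combination, 1 to 7 in the combination against almonertinib and 15 to 29 for the interaction, each highest without control 1. The fatty acid medians were then -0.0867 to 0.413 under almonertinib and -0.0327 to 0.271 in the combination. In H1975 the counts were 0 to 1 under almonertinib, 0 to 3 under paclitaxel, 0 to 3 in the combination, 0 to 3 and 0 to 5 in the combination against almonertinib and against paclitaxel, and 0 to 4 for the interaction, each highest without almonertinib 1. The H1975 sterol medians were -0.174 to -0.0676 under almonertinib, -0.23 to -0.144 under paclitaxel, 0.0995 to 0.208 in the combination against paclitaxel and 0.147 to 0.323 for the interaction. The H1975 fatty acid medians were -0.525 to -0.246 under paclitaxel, 0.109 to 0.351 in the combination against almonertinib and 0.422 to 0.618 against paclitaxel. The counts for line differences were 1 to 5 under almonertinib, 7 to 18 under paclitaxel and 2 to 7 in the combination. Of the fits with 1 library left out, shares of all genes called are given only for those without PC9 control 1. In the others a change in the count of members cannot be told apart from a change over all genes.

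In PC9 the combination against almonertinib had 2 members called under RLE factors, no filter or DESeq2 (19.4%, 15.9% and 21.6% of all genes), 3 with the trend removed (27.1%) and 5 with the replicate block (26.5%). No member was called for the H1975 interaction with the block or with the stricter filter (0), which moved the H1975 sterol median of the combination against almonertinib to 0.0426. The H1975 combination against paclitaxel had 1 member called under RLE factors or no filter (0.454% and 0.348% of all genes), and DESeq2 called 5 there, 4 under paclitaxel, 2 in the combination and 3 for the interaction. In the block fits 489 of 504 results on single members kept their side of the threshold and their direction.

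With the length and composition trend removed, alone or with the replicate block, H1975 had 5 members called under almonertinib (8.81% or 8.92% of all genes), 6 under paclitaxel (3.87% or 3.54%) and 4 in the combination (14.7% or 13.9%) in both fits, 4 or 3 in the combination against paclitaxel (225 or 185 of all 12345 genes) and 9 or 6 for the interaction (3.31% or 3.23%). All 6 paclitaxel calls were lower, where 2.12% of all genes were lower with the trend alone removed. Line differences then numbered 5 or 7 under almonertinib (29.1% or 29.6%) and 5 in the combination (30.4% or 31.1%). The PC9 fatty acid median of the combination was -0.0629 or -0.0477. H1975 medians were -0.0539 or -0.0542 (sterol) and -0.0216 or -0.0223 (fatty acid) in the combination, 0.0811 or 0.0823 (sterol) against almonertinib, 0.264 or 0.28 (fatty acid) against paclitaxel and 0.451 or 0.488 (fatty acid) for the interaction. In PC9 these fits turned round LBR under almonertinib (-0.422 and -0.421), under paclitaxel (-0.247 and -0.245) and in the interaction (0.249 and 0.247), ELOVL6 under paclitaxel (-0.143 in both), INSIG2 in the combination against paclitaxel (0.401 and 0.4) and SC5D in the interaction (0.845 and 0.838). By construction these values lack whatever part of a response runs with transcript length or base composition.

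Without the libraries that stand apart, 5 members were called in the PC9 combination against almonertinib; in H1975 there were 18 under almonertinib, 9 under paclitaxel, 12 in the combination, 14 and 13 in the combination against almonertinib and paclitaxel, and 16 for the interaction. Line differences numbered 8 under almonertinib, 14 under paclitaxel and 7 in the combination. The H1975 sterol medians were 0.0684 under almonertinib and 0.0941 for the interaction, and the fatty acid medians -0.507 under paclitaxel, 0.617 in the combination against paclitaxel and 0.845 for the interaction. Under almonertinib in H1975 MVD (-0.307), LBR (0.371) and ELOVL6 (0.447) then turned round and were called, as did ACSS2 in the interaction (0.397). Leaving out PC9 control 1 as well gave 23 members called under almonertinib in PC9 (60.6% of all genes), with a fatty acid median of -0.0727, 21 in the combination (55.6%), 14 against almonertinib (36.7%) and 30 for the interaction (58.7%). MVD (-0.252), EBP (-0.337) and DHCR7 (-0.317) under almonertinib and IDI1 (-0.33) and FDPS (-0.216) in the combination were then below the controls, and DHCR7 ranged from -0.281 without control 1 alone to 0.325 without control 3 alone. The cause was not tested. Of 272 mean levels, 12 moved by over 1 SD under RLE factors.

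No paired analysis beyond this block was made, since only the H1975 combination and control libraries met the rule for pairing. Genes at a few CPM, such as CYP51A1, SC5D and, in H1975, TM7SF2 and STARD4, rest on few reads, and their differences were less precise.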
